A study of Mus musculus with 18 samples.

Results

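The transcripts of the mitochondrial respiratory chain and ATP synthase were examined in the livers of 5 control and 5 hypothyroid C57BL/6 mouse pups at post natal day (PND) 15. Hypothyroid pups were from dams given methimazole (MMI, 0.05%) and perchlorate (1%), which block thyroid hormone synthesis, in drinking water from PND 12. Control dams were given the same sugar water (1%) without these agents. The pups were thus exposed through the dam and her water for a few days only. Per the methods 1 male pup was taken per litter, so that p-values measure the spread between pups of different litters. Liver RNA of each pup was hybridized to a 2-colour oligonucleotide array against a universal mouse reference RNA, a purchased pool, and all values are log2 liver/reference ratios. Members were all probes whose gene symbol starts with Nduf and one of the letters a, b, c, s or v, with Uqcr, with Cox and a digit from 4 to 8, or with Atp5, or is Sdha, Sdhb, Sdhc or Sdhd. The rule found 108 probes of 87 genes among 41174 probes. Of these, 107 probes of 86 genes were above the negative control limit and were tested among 32057 probes, the exception being the probe of Cox8c, a testis isoform.

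The respiratory chain passes electrons from NADH (complex I) and succinate (complex II) through ubiquinone to complex III, cytochrome c and complex IV, where oxygen is reduced. Protons pumped by complexes I, III and IV drive the ATP synthase (complex V). Subunits of complex II are all encoded in the nucleus, whereas the other complexes also hold subunits encoded in mitochondrial DNA, which are not analysed here. Thyroid hormone is known to raise oxygen consumption, and the liver is one of its target tissues. The comparison of hypothyroid with control livers asks which of these nuclear transcripts differed after short-term loss of the hormone.

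Some arrays stood apart. The labels place liver in the Cy5 channel of every array, but the ratios of control 832 and hypothyroid 576, both on slide 141, ran opposite to those of the other arrays (r = -0.97 and -0.98, against 0.88 to 0.99 for the other 8), and their channels were exchanged. As the direction of these 2 arrays was set from the data, the counts of members are also given for the original channels and for the other slides alone. Hepatocyte markers (9 of 12 listed genes on the array) had a median log2 ratio between 3.77 and 4.62 on 9 arrays and 2.34 on control 616. Exocrine pancreas markers had a median log2 ratio of 3.88 on control 832, 3.94 on control 522 and 2.23 on control 616, and between 0.07 and 0.19 on the other 7 arrays, and 8 of the 9 tested were lower in the hypothyroid group at an unadjusted p under 0.05. Medians of skeletal muscle markers ranged from -0.35 to -0.02 in controls and from -0.36 to -0.15 in hypothyroid livers. Those of heart muscle markers ranged from -0.16 to -0.06 and from -0.21 to -0.11, and those of erythroid markers from 0.61 to 1.61 and from 0.47 to 1.22. These medians include markers near background. Of the tested markers, 6 of 11 for skeletal and 6 of 7 for heart muscle were well above background on all arrays. Some single muscle markers varied more and are given with Cox6a2 below. Between the groups, 0 of 9 hepatocyte markers were lower in hypothyroid livers (median log2 difference 0.54). At an unadjusted p under 0.05 (limma) 1 was higher. Of 11 skeletal muscle markers 10 were lower (median -0.22), 2 of them at that level. Lower were 5 of 7 heart muscle markers (median -0.02) and 2 of 4 erythroid markers (median 0.07). Of all tested probes 53.8% were below 0, with 4.08% lower and 3.34% higher at that level. In bulk liver RNA, fewer cells of a type and less RNA per cell cannot be told apart.

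Respiratory chain transcripts were mostly more abundant in control liver than in the reference. Of 107 probes, 95 had a mean control ratio above 0, against 53.6% of all tested probes. The ratio was at least 2-fold above the reference for 38 (35.5%), against 10.2% of all tested probes. One probe (Cox6a2, the heart and skeletal muscle isoform of a complex IV subunit) was at least 2-fold below, against 7.14% of all tested probes. The median control ratio was 1.50 for complex II, 1.01 for complex III, 0.92 for complex I accessory subunits, 0.77 for complex I core subunits, 0.74 for complex V, 0.46 for complex I assembly factors and 0.37 for complex IV, and 0.03 over all probes. All 5 complex II probes and 2 of 18 complex IV probes were 2-fold above the reference. These ratios compare each transcript with its own level in the pool and do not rank transcripts by level. Liver was read from the same dye on 8 of 10 arrays, and the part of the dye in the ratio of a single probe was not tested.

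Within complexes the ratios differed widely. In complex I the core subunits ranged from Ndufs7 (0.21 ± 0.13, SD, n = 5) to Ndufs3 (1.22 ± 0.13), both in the arm that holds the iron-sulfur clusters. Accessory subunits ranged from Ndufa12 (-0.12 ± 0.18) to Ndufb2 (1.56 ± 0.29). In complex III the highest control ratio was that of Uqcrfs1, the Rieske iron-sulfur protein (1.83 ± 0.25), and the lowest that of Uqcrh, the hinge protein (0.33 ± 0.32). In complex V, 2 genes for the same c subunit of the membrane ring stood at the ends, Atp5g2 at -0.27 ± 0.11 and Atp5g3 at 1.36 ± 0.42. In complex IV, Cox6a2 was at -2.29 ± 0.75 and Cox7b at 1.57 ± 0.47. Atpif1 (also named Atp5if1), which encodes the inhibitor of the ATP synthase, was at -0.75 ± 0.54. The rule did not take it under the symbol used here, and it is not counted among the members.

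No member passed the test between hypothyroid and control livers. At an adjusted p under 0.05 (limma, Benjamini-Hochberg over all probes), 0 of 107 probes were called, against 2 of 32057 probes overall (0.00624%), and the smallest adjusted p among members was 0.492. At an unadjusted p under 0.05, 10 members were lower in hypothyroid livers (9.35%, against 4.08% of all probes) and 0 were higher (against 3.34%), and the Fs test of the methods also gave 10 and 0. These 10 probes belong to 8 genes, 4 of complex I, 3 of complex IV and 1 of complex V. With the dyes as labelled no member was lower at this level, and without slide 141 there were 9. Every hypothyroid array was below every control array for 2 members, both probes of Ndufa12, against 1.00% of all probes, and for 0 members above (against 1.07%).

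The median difference (hypothyroid minus control) of the 107 probes was -0.03 on the log2 scale, close to the -0.01 of all tested probes. Of the members 60 were below 0 (56.1%, against 53.8% of all tested probes) and 47 above. The medians differed in sign among the complexes. They were -0.12 for complex IV (15 of 18 below 0, 3 at p under 0.05) and -0.10 for complex I accessory subunits (26 of 39 below, 6 at p under 0.05). Complex I assembly factors were at -0.01 (4 of 7 below, 0 at p under 0.05). Complex II was at 0.23 (4 of 5 above 0), complex I core subunits at 0.06 (5 of 7 above), complex III at 0.06 (6 of 9 above) and complex V at 0.04 (13 of 22 above, 1 lower at p under 0.05). Under median centring, which moves all probes to a median of 0.09, the accessory subunits of complex I were at 0.07 and complex IV at -0.02. No test was made of these medians.

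**Figure D1:**
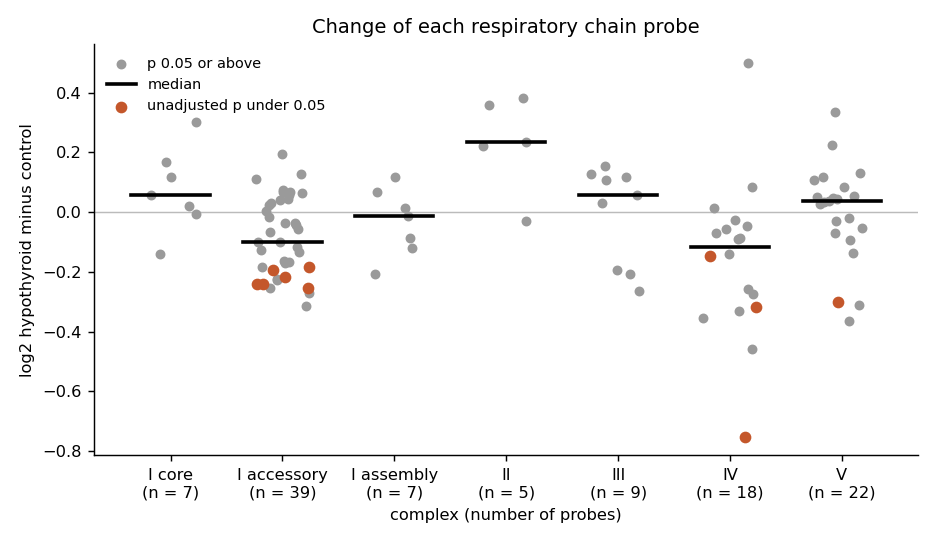
Log2 difference between hypothyroid and control means (n = 5 each) for each of 107 respiratory chain probes, one point per probe, by complex; black bars are medians and red points have an unadjusted p under 0.05 (limma). All 10 red points lie below 0, 6 of them in complex I accessory subunits, and the complex II median lies at 0.23.

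The largest difference at p under 0.05 was that of Cox7c, which encodes a small membrane subunit of complex IV. Its ratios were 0.04, -0.32, -0.83, 0.58 and -0.24 in controls 881, 832, 522, 616 and 391, and -0.82, -0.30, -0.88, -1.31 and -1.23 in hypothyroid 891, 576, 311, 723 and 626. The groups overlapped, as controls 832 and 522 were below hypothyroid 576, the highest of its group. The log2 difference was -0.75 (SE 0.25, adjusted p = 0.556, limma). It was -0.57 without control 616 and -0.67 with slide as a term, where its unadjusted p was above 0.05. Within slides it was -1.80 on slide 100 and -0.86 on slide 139, but -0.05 on slide 136 and 0.03 on slide 141.

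Cox5a, which encodes a matrix-side subunit of complex IV, was at 1.37, 0.95, 1.06, 1.37 and 0.92 in the controls in the same order, and at 0.65, 0.82, 0.97, 0.74 and 0.91 in the hypothyroid livers. The groups overlapped only through hypothyroid 311, which was above controls 832 and 391. The log2 difference was -0.32 (SE 0.11, adjusted p = 0.566, limma), and the hypothyroid array was lower on each of the 4 slides that held both groups, by between -0.72 and -0.10. Its partner Cox5b, a zinc-binding subunit, had values from 0.60 to 0.79 in controls and from 0.49 to 0.66 in hypothyroid livers (difference -0.15, SE 0.07, adjusted p = 0.671). The Cox5b difference turned to 0.02 under median centring.

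In complex I, the accessory subunit Ndufa12 has 3 probes. One had ratios of -0.20, -0.24, -0.36, -0.34 and -0.35 in controls and -0.43, -0.51, -0.54, -0.52 and -0.45 in hypothyroid livers. All hypothyroid values were below all control values (difference -0.19, SE 0.06, adjusted p = 0.492, limma). A second probe also separated the groups (-0.22, SE 0.08, adjusted p = 0.623), whereas the brightest probe, between -0.32 and 0.16 in controls and between -0.47 and -0.08 in hypothyroid livers, did not (-0.12, SE 0.10, adjusted p = 0.795).

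Ndufab1, the mitochondrial acyl carrier protein that is also a complex I subunit, was at 0.98, 0.72, 0.83, 0.92 and 0.81 in controls and at 0.62, 0.58, 0.69, 0.68 and 0.77 in hypothyroid livers by its brightest probe. Only hypothyroid 626 was above the lowest control. The difference was -0.18 (SE 0.07, adjusted p = 0.608), its second probe gave -0.25 (adjusted p = 0.655), and the brightest probe was lower on all 4 slides with both groups, by between -0.36 and -0.13. Ndufb3 was at 0.62 ± 0.24 in controls and 0.37 ± 0.07 in hypothyroid livers (-0.24, SE 0.11, adjusted p = 0.665), and the difference was -0.16 without control 616, where its unadjusted p was above 0.05. Ndufc1 differed by -0.31 on its brightest probe (SE 0.18, adjusted p = 0.725) and by -0.24 on a dimmer one (SE 0.10, adjusted p = 0.657). Both are small accessory subunits of the membrane arm.

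In complex V, Atp5k (subunit e, found where ATP synthase monomers meet) was at 1.51, 1.01, 1.24, 1.48 and 1.37 in controls and at 1.23, 0.93, 0.84, 1.16 and 0.96 in hypothyroid livers. The groups overlapped through control 832, the lowest control, which was below hypothyroid 891 and 723. The difference was -0.30 (SE 0.11, adjusted p = 0.612, limma), and within slides it was between -0.52 and -0.08. With the 3 controls that had high pancreas markers left out, Atp5k differed by -0.42, Cox7c by -0.80, Cox5a by -0.33 and Ndufab1 by -0.23, each at an unadjusted p under 0.05. Without hypothyroid 311 the Atp5k difference was -0.25 and no longer at that level.

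**Figure D2:**
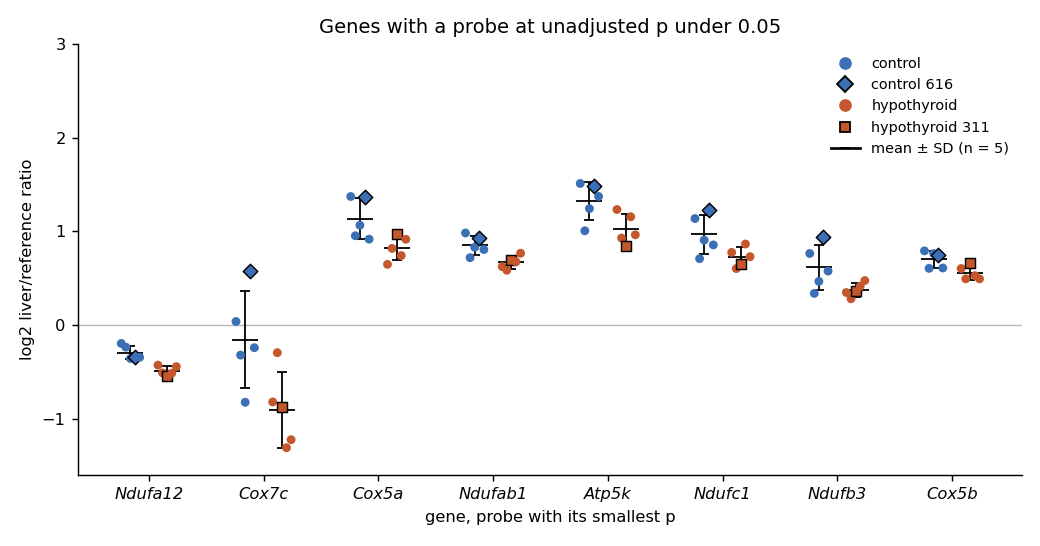
Log2 liver/reference ratio on each array for the 8 genes with a probe at an unadjusted p under 0.05, each shown by its probe with the smallest p; points are arrays, bars are mean ± SD (n = 5), diamonds control 616 and squares hypothyroid 311. The groups are separate for Ndufa12 and overlap for the other genes, with the widest spread for Cox7c.

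Promoters are shown for the 5 genes with a probe at p under 0.03, since these carry the differences above, as the 250 bases before the RefSeq start (GRCm38.p6), 5′ to 3′. Capitals mark letters of the NRF1 motif CGCANGCGC or its reverse GCGCNTGCG, a factor known for binding promoters of respiratory chain genes.
Ndufa12 (chr10:94198785-94199034, + strand): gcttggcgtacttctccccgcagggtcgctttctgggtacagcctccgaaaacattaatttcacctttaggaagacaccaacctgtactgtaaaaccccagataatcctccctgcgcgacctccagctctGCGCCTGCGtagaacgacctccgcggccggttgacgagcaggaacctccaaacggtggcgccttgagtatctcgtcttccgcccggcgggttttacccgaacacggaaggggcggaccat
Atp5k (chr5:108434400-108434649, - strand): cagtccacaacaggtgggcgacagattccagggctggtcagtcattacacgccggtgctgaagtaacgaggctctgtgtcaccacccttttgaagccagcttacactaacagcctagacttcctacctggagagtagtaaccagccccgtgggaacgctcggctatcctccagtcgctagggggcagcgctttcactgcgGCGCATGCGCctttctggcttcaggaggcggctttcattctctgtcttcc
Cox7c (chr13:86046796-86047045, - strand): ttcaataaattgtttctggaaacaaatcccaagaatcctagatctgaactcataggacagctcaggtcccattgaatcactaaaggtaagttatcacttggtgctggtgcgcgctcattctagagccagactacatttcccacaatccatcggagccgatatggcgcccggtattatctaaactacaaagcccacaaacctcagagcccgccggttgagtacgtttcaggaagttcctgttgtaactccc
Cox5a (chr9:57520982-57521231, + strand): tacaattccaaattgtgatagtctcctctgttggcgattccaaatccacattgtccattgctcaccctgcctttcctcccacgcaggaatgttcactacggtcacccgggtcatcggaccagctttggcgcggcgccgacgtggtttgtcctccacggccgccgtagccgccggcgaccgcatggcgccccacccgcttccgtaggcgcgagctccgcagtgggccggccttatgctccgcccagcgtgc
Ndufab1 (chr7:122101849-122102098, - strand): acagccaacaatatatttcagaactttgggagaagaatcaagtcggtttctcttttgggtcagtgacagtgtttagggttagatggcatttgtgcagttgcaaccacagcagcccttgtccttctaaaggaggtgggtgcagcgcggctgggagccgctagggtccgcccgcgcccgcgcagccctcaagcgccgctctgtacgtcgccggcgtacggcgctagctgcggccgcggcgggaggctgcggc

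The NRF1 letters were found once for Ndufa12 and in 2 overlapping copies, 1 on each strand, for Atp5k. Atp5k also held CCGGAAG, the letters bound by ETS factors such as GABPA, and AGGTCA, a nuclear receptor half-site. Both matches, read on either strand, ended in the 50 bases after the start, and part of a match may lie before it. The other 3 promoters held none of the 3 motifs on either strand. For Cox5a the start in the table lies inside the gene rather than at its first base. A promoter of 300 bases was at hand for 72 of the 87 genes. The NRF1 letters were present in 24 of these (33.3%, against 7.12% of 27025 genes with a promoter). By class they were in 9 of 15 genes of complex V, 2 of 3 of complex II, 2 of 4 of complex III, 2 of 5 assembly factors and 8 of 27 accessory subunits of complex I, 0 of 5 core subunits and 1 of 13 complex IV genes. The ETS letters were in 18 (25%, against 9.93%) and the half-site in 16 (22.2%, against 18.1%), and 33 of 72 held none. The median log2 difference was -0.06 for the 24 genes with the NRF1 letters and -0.03 for the 48 without, -0.03 and -0.05 with and without the ETS letters, and -0.12 for the 16 genes with the half-site and -0.01 for the 56 without. A match describes the letters only, and no test was made.

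Complex II oxidizes succinate and is shared with the tricarboxylic acid cycle. Sdha, its flavoprotein, was at 1.31, 1.89, 1.77, 0.27 and 1.48 in controls 881, 832, 522, 616 and 391, and at 1.73, 1.78, 1.97, 1.52 and 1.62 in hypothyroid livers (difference 0.38, SE 0.26, adjusted p = 0.744, limma). Control 616 alone was far below the others. Sdhb, the iron-sulfur subunit, was at 0.70 on control 616 and between 1.70 and 1.89 on the other controls, and between 1.60 and 2.01 in hypothyroid livers (difference 0.22, SE 0.20, adjusted p = 0.795). Sdhc and Sdhd, the membrane anchors, differed by 0.23 (SE 0.18, adjusted p = 0.767) and -0.03 (SE 0.10, adjusted p = 0.953). Without control 616 the differences were 0.11 for Sdha, 0.01 for Sdhb, 0.06 for Sdhc and -0.12 for Sdhd, and the complex II median was 0.06 in place of 0.23. With controls 832, 522 and 616 left out Sdha differed by 0.33, at an unadjusted p under 0.05. Only controls 881 and 391 were left in that fit, and Sdha was higher on controls 832 and 522 than on both. On controls 881 and 391 a second Sdha probe was at 1.99 and 2.15, against 2.02 to 2.44 in hypothyroid livers. Sdhb was at 1.74 and 1.77 there, Sdhc at 1.06 and 1.43 (against 1.37 to 1.62) and Sdhd at 1.56 and 1.51 (against 1.39 to 1.59).

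The complex II median ratio was 0.70 on control 616, between 1.51 and 1.77 on the other controls and between 1.60 and 1.97 in hypothyroid livers. The median ratio of the core subunits of complex I, which bind NADH and carry electrons to ubiquinone, was also lowest on control 616, at 0.35. Without control 616 the core median was 0.01 in place of 0.06. On that array 6 of 7 core probes and all 5 complex II probes were below the other 4 controls, and 10 of 18 complex IV probes were above them. Over all members 38 were below and 43 above, 75.7% outside the range of the other 4 controls, against 66.2% of all tested probes on control 616 and between 23.1% and 43.3% on each other control.

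The transcripts farthest below the other controls on control 616 included Sdha (-1.34 from their mean), Sdhb (-1.07) and Sdhc (-0.87). Those farthest above were Cox6a2 (1.65), Cox7a2 (1.20), Atp5md (1.03), Cox7b (0.92), Cox6c (0.92) and Cox7c (0.91), mostly genes for small subunits. Thus control 616 had low complex II and high complex IV ratios beside its lower hepatocyte marker ratio of 2.34 and its pancreas marker ratio of 2.23. The part of other cells in these values was not tested. Without it, 7 members were lower at p under 0.05, and the complex IV median was -0.07.

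**Figure D3:**
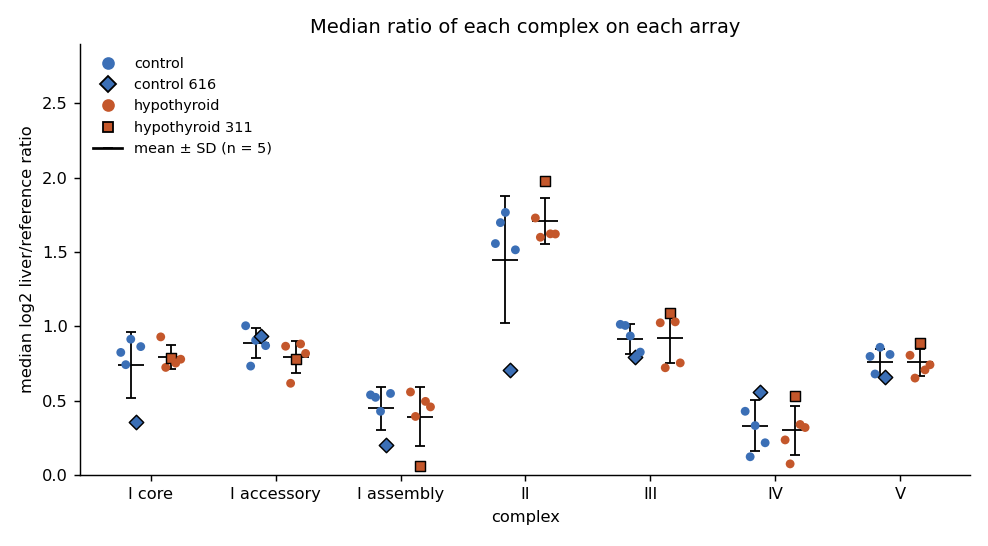
Median log2 liver/reference ratio of the probes of each complex on each array; points are arrays, bars are mean ± SD (n = 5), diamonds control 616 and squares hypothyroid 311. Control 616 lies at 0.70 for complex II, below all other arrays, and at 0.56 for complex IV, above all others.

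In complexes III and V most differences were within the spread between arrays. Of 9 complex III probes none had p under 0.05. Uqcrfs1 was at 1.83 ± 0.25 in controls and 1.63 ± 0.25 in hypothyroid livers (-0.21, SE 0.14, adjusted p = 0.746), and Uqcrh at 0.33 ± 0.32 and 0.39 ± 0.26 (0.06, SE 0.16, adjusted p = 0.946). In complex V, Atp5b, the catalytic beta subunit, has 3 probes that differed by 0.12, 0.33 and 0.22, all with overlapping groups (adjusted p = 0.878, 0.727 and 0.781). Atp5md, a small subunit of the membrane part, differed by -0.36 (SE 0.20, adjusted p = 0.713), and was at 1.88 on control 616 against 0.63 to 0.97 on the other controls. The c subunit genes Atp5g3 and Atp5g2 differed by 0.03 (SE 0.21) and 0.04 (SE 0.08), and Atpif1 by -0.12 (SE 0.23, adjusted p = 0.906). Over all members, 16 genes had several tested probes, whose differences lay a median of 0.06 apart, and 3 of these genes (Ndufa7, Ndufv3 and Ndufaf4) had probes of both signs.

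Complex IV holds pairs of isoforms from separate genes, 1 widely expressed or found in liver and 1 typical of muscle, lung or testis. Cox6a1, the form of liver, was at 0.63 ± 0.22 in controls, and Cox6a2, that of muscle, at -2.67, -2.69, -2.46, -0.97 and -2.68, so that control 616 alone was high. In hypothyroid livers Cox6a2 was between -2.81 and -2.65. The difference of -0.46 (SE 0.29, adjusted p = 0.732) was -0.13 without control 616. The skeletal muscle markers had a median ratio of -0.16 on that array and were highest on control 522 (-0.02). Single markers differed. Acta1, Actn3, Mylpf, Tnni2 and Tnnt3 were highest on control 616 (-0.53, -0.75, -0.51, -0.14 and -0.41). Tnnc2, Myh2, Mb and Ckm were highest on control 522 (-0.02, 1.08, 0.17 and 0.03), and Myh1 and Myoz1 on hypothyroid arrays. Mb was well above background on 1 array of each group only. Of 7 tested heart muscle markers, Actc1 and Tnnt2 were highest on control 616 (0.01 and -0.02) and the rest on other arrays. Their part in the Cox6a2 value was not tested. Cox4i1 differed by -0.09 (SE 0.11, adjusted p = 0.841) and Cox4i2, typical of lung, by -0.05 (SE 0.07, adjusted p = 0.869), with Cox4i2 well above background on 4 control and 3 hypothyroid arrays. Cox7b differed by -0.33 (SE 0.19, adjusted p = 0.728) and its testis form Cox7b2, well above background on 1 array of each group, by -0.07. Cox6b1 and its testis form Cox6b2 differed by -0.06 and -0.03, Cox7a2 by -0.27, Cox7a2l by 0.08 and Cox8a by 0.01.

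Cox8b and Cox7a1, the forms of muscle that are also expressed in brown fat, were high on 1 hypothyroid array. Cox8b was between -0.06 and 0.27 in controls and at -0.02, -0.16, 2.66, 0.22 and 0.07 in hypothyroid 891, 576, 311, 723 and 626 (difference 0.50, SE 0.46, adjusted p = 0.799), and -0.03 without hypothyroid 311. It was well above background on 1 control and 3 hypothyroid arrays. Cox7a1 was at 0.65 on hypothyroid 311 and between -0.29 and -0.06 on the other hypothyroid arrays, and at 0.52 on control 616 (difference -0.09, SE 0.19, adjusted p = 0.919). On hypothyroid 311 Ucp1, the uncoupling protein of brown fat, was at 4.03, against -0.14 to 0.10 on the other 9 arrays, where it was not well above background. In a list of 8 fat markers chosen after these values were seen, 7 were on the array. On hypothyroid 311 5 of the 7 were at least 2-fold above the reference (Ucp1, Cidea at 3.79, Adipoq at 2.07, Plin1 at 1.28 and Fabp4 at 4.49), against 1 (Fabp4) on each other array. Elovl3 and Cpt1b were at -0.13 and -0.07 there. The part of fat RNA in the Cox8b and Cox7a1 values was not tested.

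**Figure D4:**
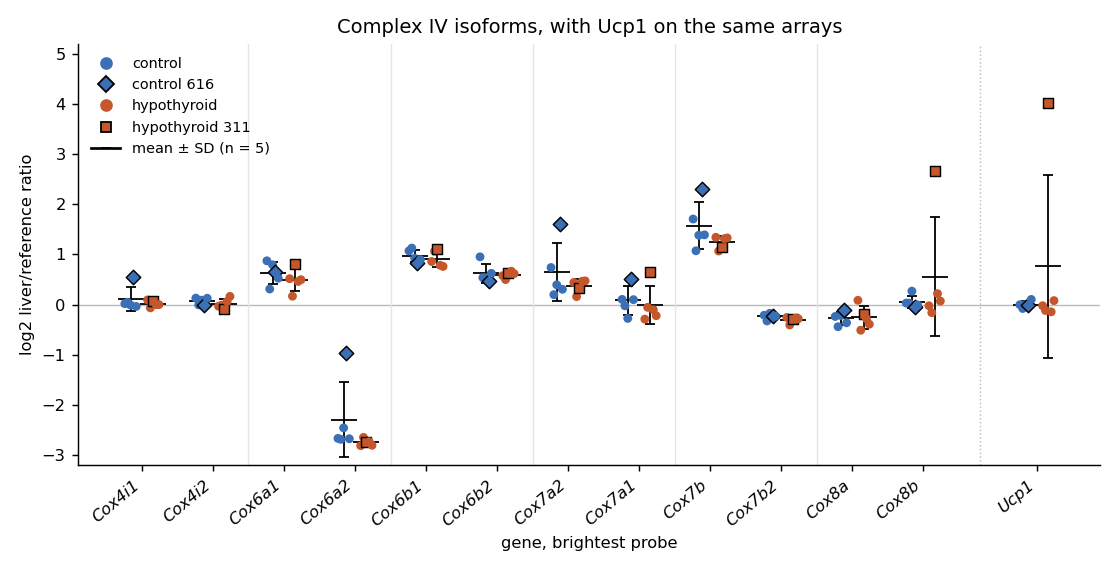
Log2 liver/reference ratio on each array for 6 pairs of complex IV isoforms (brightest probes), the widely expressed or liver form to the left of each pair, and for Ucp1; points are arrays, bars are mean ± SD (n = 5), diamonds control 616 and squares hypothyroid 311. Hypothyroid 311 lies at 2.66 for Cox8b and 4.03 for Ucp1, and control 616 at -0.97 for Cox6a2, apart from the other arrays.

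The arrays lay on 6 slides, of which 4 held both groups. The median difference of all members was -0.05 on slide 139, -0.05 on slide 141, -0.03 on slide 136 and -0.07 on slide 100. The accessory subunits of complex I were below 0 on all 4 (-0.21 to -0.05), as was complex IV (-0.37 to -0.02). Complex II was at 0.36 on slide 139 and 1.01 on slide 100, which held control 616, and at -0.06 and -0.01 on the other 2. On slide 136, 10 of 18 complex IV probes were below 0. The complex IV median ratio there was 0.33 on control 522 and 0.53 on hypothyroid 311. Over all arrays that ratio was between 0.12 and 0.56 in controls and between 0.07 and 0.53 in hypothyroid livers. Control 832 and hypothyroid 576, the arrays of slide 141, had the lowest median ratio of all members in their groups, at 0.71 and 0.62, against 0.72 to 0.87 on the other controls and 0.74 to 0.81 on the other hypothyroid arrays.

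**Figure D5:**
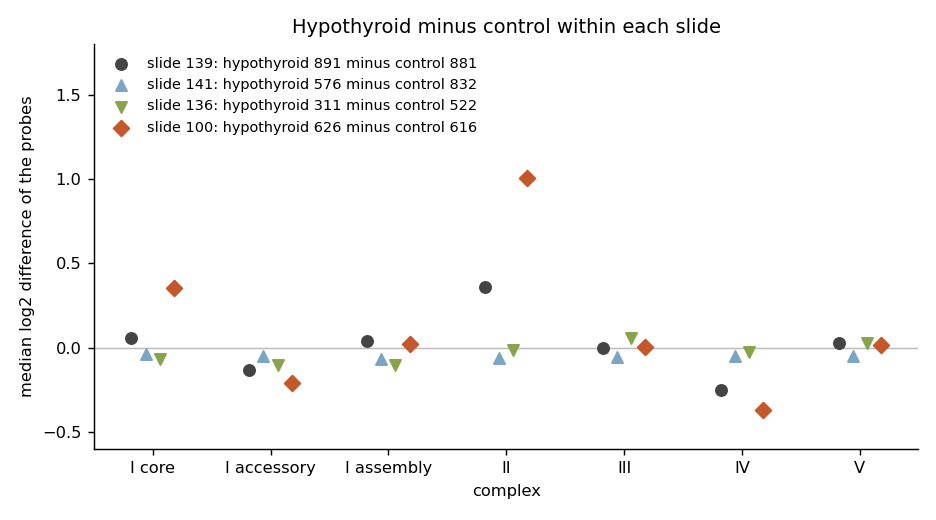
Median log2 difference between the hypothyroid and the control array of the same slide for the probes of each complex, for the 4 slides that held both groups. Complex I accessory subunits and complex IV lie below 0 on all 4 slides, and complex II lies at 1.01 on slide 100, which held control 616.

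Other genes of the same pathway were examined in lists, each gene by its brightest probe, and 0 genes in any list had an adjusted p under 0.05. Counts in the lists are therefore at an unadjusted p under 0.05, where 4.08% of all probes were lower and 3.34% higher. Of 29 assembly factors outside the rule, 3 were lower and 1 higher at an unadjusted p under 0.05 (median -0.04). The lower ones were Cox18, which inserts a mitochondrially encoded complex IV subunit (-0.37, SE 0.12, adjusted p = 0.497, limma), Cox15, which makes heme A (-0.22, SE 0.10, adjusted p = 0.657), and Tmem70, an ATP synthase assembly factor (-0.17, SE 0.08, adjusted p = 0.671). The higher one was Lrpprc, which stabilizes mitochondrial mRNAs (0.41, SE 0.18, adjusted p = 0.661), with control 616 at 0.38 and the other controls between 1.13 and 1.48. A second Lrpprc probe differed by 0.21 (SE 0.14).

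Of 15 genes for electron carriers and ubiquinone synthesis (median 0.03, 6 below 0), 2 were lower at an unadjusted p under 0.05 and 0 higher. Cycs, cytochrome c, was at 0.78, 0.57, 0.62, 1.20 and 0.60 in controls and at 0.41, 0.49, 0.02, 0.27 and 0.42 in hypothyroid livers. All hypothyroid values were below all control values (-0.43, SE 0.13, adjusted p = 0.492, limma), and so they were on its 2 dimmer probes (-0.55 and -0.57). Gpd2, the mitochondrial glycerol 3-phosphate dehydrogenase that passes electrons to ubiquinone, was at 0.53, 0.58, 0.62, -0.25 and 0.96 in controls and between -0.47 and 0.05 in hypothyroid livers (-0.60, SE 0.20, adjusted p = 0.537). Control 616 was the only control within the hypothyroid values. The study reported Gpd2 as significantly lower in hypothyroid livers, with its own normalization and the Fs test. Cyc1, the cytochrome of complex III, which the rule did not take, differed by -0.04 (SE 0.10, adjusted p = 0.932).

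Of 16 regulators of mitochondrial biogenesis (median 0.00, 6 below 0), 3 were lower and 2 higher at an unadjusted p under 0.05. Tfb2m, a mitochondrial transcription factor, was lower on all hypothyroid arrays than on all controls (-0.34, SE 0.08, adjusted p = 0.317, limma), with values from 0.78 to 1.26 in controls and from 0.63 to 0.77 in hypothyroid livers. A second, dimmer Tfb2m probe differed by -0.02 (SE 0.10), so that the probes disagreed. Ppargc1b, a coactivator of respiratory genes, differed by -0.57 (SE 0.15, adjusted p = 0.355) and Ssbp1, the mitochondrial single-strand DNA binding protein, by -0.20 (SE 0.09, adjusted p = 0.654), though 1 of the 3 Ssbp1 probes differed by 0.06. Polg2, a subunit of the mitochondrial DNA polymerase, was higher on all hypothyroid arrays (0.23, SE 0.07, adjusted p = 0.469). Tfam, which packages mitochondrial DNA, differed by 0.19 (SE 0.08, adjusted p = 0.661). Ppargc1a (0.35, SE 0.29, adjusted p = 0.778), Nrf1 (0.04, SE 0.09, adjusted p = 0.926) and Esrra (0.09, SE 0.12, adjusted p = 0.854) had overlapping groups.

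In the tricarboxylic acid cycle (median 0.01, 6 of 16 genes below 0) 1 gene had an unadjusted p under 0.05 by its brightest probe. Fh1, fumarase, was higher on all hypothyroid arrays, at 1.81 to 2.06 against 1.15 to 1.73 in controls (0.37, SE 0.11, adjusted p = 0.487, limma). Dimmer probes of other genes were lower at that level. That of Dlat, a pyruvate dehydrogenase subunit, differed by -0.35 (SE 0.07, adjusted p = 0.224) and that of Sucla2, a succinyl-CoA ligase subunit, by -0.56 (SE 0.12, adjusted p = 0.238), both without overlap of the groups, and that of Pdhb by -0.27 (SE 0.12, adjusted p = 0.661). Their brightest probes differed by -0.19 (SE 0.10), 0.01 (SE 0.14) and -0.16 (SE 0.13), so that the probes of Sucla2 disagreed. Of 13 carriers and uncoupling genes (median -0.01), Ucp2, by its brightest probe of 3, was lower (-0.29, SE 0.11, adjusted p = 0.629) and Slc25a13, the aspartate-glutamate carrier of liver, was higher (0.50, SE 0.21, adjusted p = 0.653). The latter was at 2.65 on control 616 and between 3.68 and 4.00 on the other controls.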

How the data were processed

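The arrays were Agilent 4x44K mouse arrays, 1 per animal, read with Agilent Feature Extraction. The authors deposited the median spot and background intensity of both channels, not normalized, and the software's processed signal intensities, which were used only as an alternative. MiRNA assays of the series were not used here. Here, median intensities were corrected by normexp (offset 50) and loess (span 0.2) within each array in limma 3.58.1 (R 4.3.3, statmod 1.5.0, version 1.17.8 of data.table). Outlier spots and control spots were left out and spots of a probe averaged. Probes were tested when liver exceeded the negative controls (5% trimmed mean and 3 trimmed SDs above it) on at least 4 of 5 arrays of a group. Groups were compared with limma, and p-values were adjusted over all probes. Precision is limited by how many arrays there were.

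The deposited files name probes by accession only. Of 41174 probes, 23374 matched a symbol of 16535 genes from RefSeq (GRCm38.p6), the source of names and promoters. By the rule RefSeq holds 96 protein-coding genes, and those without a matched probe are not analysed here. The channels of slide 141 were exchanged.

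The members, lists, named genes and tests were chosen with earlier results of these data known. Named were members with an unadjusted p under 0.05, the members with the highest and lowest control ratio of each complex, complex II, the complex IV isoforms, Atpif1, genes of the lists with p under 0.05, and Cycs, Cyc1, Ppargc1a, Nrf1, Tfam, Esrra, Ucp2 and Gpd2. Other members are named where their probes differed in sign or where they stood out on an array, after their values were seen. The brightest probe stands for a gene. The fits were tested on simulated data. Alternatives were the dyes as labelled, no slide 141, a wider loess span (0.3), median centring, the processed signals, no background correction, a filter dropped or asked of all 10 arrays, slides as fixed or random terms, the Fs test with 100 residual shuffles, probes averaged to genes, each array left out in turn and, added after seeing the data, 2 sets of arrays left out. Results for 1 member are not reported here.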

Additional observations from a re-analysis of the deposited data

Results flagged for a closer look

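The gap between the extreme array and its nearest neighbour was divided by the range of the group in 80 groups of 5 arrays, and 9 (11.2%) were past Dixon's 95% critical value, which chance passes in about 5% of groups. On control 616 the share was 0.763 for the complex II median and 0.841 for Sdhb and 0.718 for Sdhd, where it was the lowest control, and 0.858 for Cox4i1 and 0.867 for Cox6a2, where it was the highest (Cox4i1 at 0.55, against -0.04 to 0.05). On hypothyroid 311, the highest of its group, it was 0.865 for Cox8b and 0.75 for Cox7a1. It was 0.733 for Cox8b on control 522 (0.27) and 0.732 for Cox7b2 on hypothyroid 576 (-0.41), a probe well above background on 1 array of each group.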

How the results depend on the processing

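The dyes of slide 141, median centring and single arrays moved the counts most. The 10 members lower at an unadjusted p under 0.05 were 0 with the dyes as labelled, 0 with median centring, 5 with the processed signals and 5 without control 616 and hypothyroid 311 together, and between 4 (without control 881) and 19 (without control 832) when single arrays were left out, with 6 without hypothyroid 576 and 6 without hypothyroid 311. The count of higher members was 2 without controls 832, 522 and 616, and 0 to 1 when single arrays were left out, with 1 without control 832 and 1 without control 522. No member had an adjusted p under 0.05 in any of the 24 alternatives. Median centring moved the median difference of all members to 0.13, of complex I accessory subunits to 0.0662 and of complex V to 0.19, and turned Cox5b to 0.0183. The complex IV median was below 0 (-0.20 to -0.02) and the complex II median above 0 (0.05 to 0.43) in all 24. With the dyes as labelled 7 members, in place of 38, were 2-fold above the reference. The other 273 values of counts and medians moved by less than 1.5 times or than the spread between arrays. The causes were not tested, beyond that leaving out arrays tests fewer samples. No paired analysis was possible because the arrays of the groups share no animal number, but 4 slides held both groups, and the count of lower members was 12 with slide as a fixed and 11 as a random term. Cox7b2 and Cox8b gave no value where they did not pass the filter. Probes near background limit what can be seen of Cox4i2, Cox7b2, Cox8b and Cox8c.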
